A study of Homo sapiens with 18 samples.

Results

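Knockdown of STIM1 was compared with a control siRNA in gemcitabine-resistant pancreatic cancer cells that had been given thapsigargin. The comparison took 6 of the series' 18 libraries of polyadenylated RNA, chosen by their labelled cell line, siRNA and treatment, 3 with an siRNA against STIM1 (siSTIM1) and 3 with a control siRNA (siCont). L3.6pl is a human pancreatic cancer cell line, and GemR is its gemcitabine-resistant derivative, kept in 64 nM gemcitabine. All 6 libraries came from GemR cells that carried their siRNA for 48 h and received 500 nM thapsigargin 3 h before harvest. The same siRNAs were also given to GemR cells that received DMSO as vehicle, 3 libraries each, and those 6 libraries served to ask whether the knockdown effect depended on thapsigargin. The remaining 6 libraries, of parental L3.6pl cells with siCont, entered the estimate of the spread and the mean level by which genes were chosen for testing. A tested gene can therefore be near 0 in the 6 libraries compared. GemR is 1 derivative, and the sources used here give neither the number nor the sequence of the siRNAs. Loss of STIM1 and any other effect of that siRNA therefore cannot be told apart.

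STIM1 is a calcium sensor in the membrane of the endoplasmic reticulum (ER). When the ER calcium store empties, STIM1 clusters and opens ORAI channels in the plasma membrane, the process called store-operated calcium entry, and the entering calcium activates calcineurin, NFAT and other calcium-driven transcription factors. Thapsigargin blocks the SERCA pump that refills the store, so it both triggers this entry and, by depleting the ER, starts the unfolded protein response through PERK, IRE1 and ATF6.

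Values are the authors' normalized counts, in which the reads of each gene are scaled by a size factor that is shared by all genes of a library. Reads recovered from them numbered 13249840 to 16519239 per siSTIM1 library and 12769554 to 15542458 per siCont library. Of 26485 genes in the table, the 13096 with a mean of at least 10 over all 18 libraries were tested with limma on log2(normalized count + 1). A gene is called here when its adjusted p (Benjamini and Hochberg, over all tested genes) was under 0.05, and a positive log2 fold change means higher in siSTIM1 cells. After ±, a log2 fold change has its standard error, and a mean normalized count its standard deviation (n = 3). The labels number the replicates without saying that they were separate cultures, so the p-values measure only the spread among the libraries. At 0 in all 6 libraries were 0 of 9 ductal carcinoma markers, 3 of 13 fibroblast markers (DCN, LUM and FAP) and 7 of 17 immune and endothelial markers, CD3D, CD4 and MS4A1 among them. Of the others, the fibroblast list's COL1A1 had 1447 to 1726 normalized counts in siSTIM1 libraries and 1371 to 1503 in siCont libraries, and the endothelial CDH5 had 82.9 to 105 in siSTIM1 libraries and 80.1 to 105 in siCont libraries. Of the ductal markers, the keratin KRT18 (log2 fold change 0.31) and CEACAM6 (1.01) were called higher and KRT19 (-0.75) and SOX9 (-1.48) lower, the KRT18 call being lost without siSTIM1 replicate 1 (adjusted p 0.056). Of 5 fibroblast markers that passed the filter only COL3A1 was called (log2 fold change -1.11), with the 13 fibroblast markers summing to 1627 to 1888 normalized counts in siSTIM1 libraries and 1618 to 1832 in siCont libraries. Of the immune and endothelial markers, 3 passed the filter, and PECAM1 (log2 fold change -1.28) and CD68 (-0.54) were called lower, the CD68 call being lost without siSTIM1 replicate 3 (adjusted p 0.055). The 17 markers of that list summed to 275 to 291 normalized counts in siSTIM1 libraries and 410.4 to 434 in siCont libraries, and the part of these markers in the results was not tested. Replicate 1 of siSTIM1 stood apart from replicates 2 and 3: its deviations from the group mean fell with transcript length (Spearman correlation -0.507 across 12419 genes, against 0.372 and 0.379 in replicates 2 and 3). Without it, 4561 genes were called, and these held 84.8% of the genes called with it. The counts of each gene list without it stand after the lists.

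STIM1 (ENSG00000167323.11, chr11:3854527-4093210 on the plus strand of hg38 in GENCODE 29) was read first, since it is the siRNA target. It had 272, 353 and 305 normalized counts in the 3 siSTIM1 libraries and 6079, 6307 and 6174 in the 3 siCont libraries. The siSTIM1 values lay far below the siCont values in every library, with a log2 fold change of -4.32 ± 0.10 (20.0-fold lower, adjusted p 1.2e-16). In these bulk libraries, fewer cells of a kind and less RNA per cell cannot be told apart. Across all genes, 4796 of 13096 (36.6%) were called, 2321 higher (17.7%) and 2475 lower (18.9%), and the median log2 fold change over all tested genes was -0.01. In 4637 of the called genes the 3 siSTIM1 and 3 siCont values did not overlap. Calling favours such separation, so a lack of overlap describes a gene's values and adds no evidence to its call. Most changes were small: the median size among called genes was 0.50 on the log2 scale, and 728 genes were called and changed by at least 2-fold, 364 in each direction. The counts within each gene group are to be read against these shares. The plot of fold change against level shows STIM1 as the lowest point and SCG2 as the highest.

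**Figure D1:**
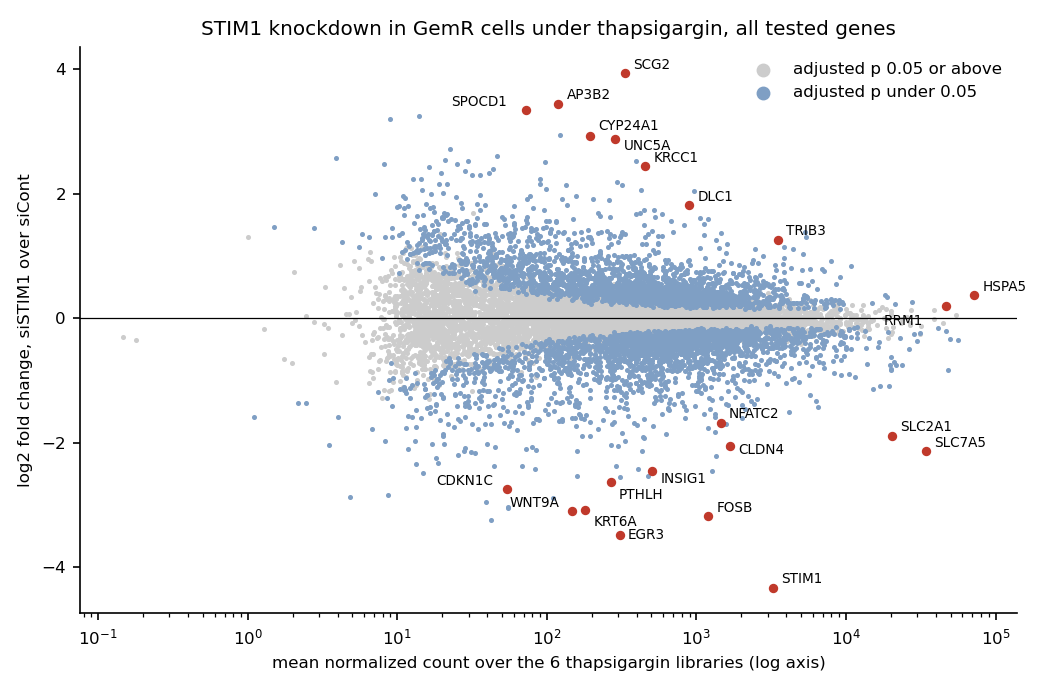
Log2 fold change of siSTIM1 over siCont under thapsigargin (vertical axis) against the mean normalized count over the 6 thapsigargin libraries (horizontal log axis), 1 point per tested gene, with called genes in blue and named genes in red. STIM1 is the lowest point at -4.32 and SCG2 the highest at 3.94, and called genes spread almost evenly above and below 0 (2321 and 2475).

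Of 10 tested genes of store-operated calcium entry, 1 rose (10.0%, against 17.7% of all tested genes), the channel subunit ORAI3. Another 3 fell (30.0%, against 18.9%), and 6 were not called. ORAI3 had 226, 171 and 195 normalized counts in siSTIM1 cells and 81.8, 78.4 and 82.5 in siCont cells. Every siSTIM1 value was more than 2-fold above every siCont value, with a log2 fold change of 1.27 ± 0.15 (adjusted p 2.9e-06). ORAI1, the main pore subunit, had a log2 fold change of 0.04 ± 0.10 (adjusted p 0.81), ORAI2 one of -0.02 ± 0.13 (adjusted p 0.91) and the second sensor STIM2 one of 0.12 ± 0.10 (adjusted p 0.33). The 3 genes called lower were STIM1, the cation channel TRPC1 (-1.02 ± 0.32, adjusted p 0.017) and SARAF, which slows calcium entry by acting on STIM1 (-0.23 ± 0.06, adjusted p 0.0099). TRPC1 lost its call without siCont replicate 3 (adjusted p 0.052) or siSTIM1 replicate 1 (0.087), and SARAF without siSTIM1 replicate 2 (0.053).

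Next came the pumps, exchangers and release channels that move calcium into and out of the ER and mitochondria. Of 20 tested, 6 rose (30.0%, against 17.7% of all tested genes) and 2 fell (10.0%, against 18.9%). The other 12 were not called, and the median log2 fold change was 0.14. The secretory pathway pump ATP2C2 rose, with 65.2, 47.7 and 58.8 normalized counts in siSTIM1 cells and 22.6, 23.8 and 25.7 in siCont cells (log2 fold change 1.21 ± 0.19, adjusted p 5.1e-05). The plasma membrane sodium-calcium exchanger SLC8A1 rose by 1.25 ± 0.35 on the log2 scale (adjusted p 0.0087), a call lost without siCont replicate 1 (0.056), and ATP2C1, the relative of ATP2C2, rose by 0.24. The inositol trisphosphate receptor ITPR1 fell by 0.75 ± 0.25 (adjusted p 0.024), a call lost without siCont replicate 3 (0.094) or siSTIM1 replicate 1 (0.12). ATP2A2, which encodes the SERCA pump that thapsigargin blocks, averaged 10444 ± 1148 normalized counts in siSTIM1 cells and 9418 ± 405 in siCont cells and was not called (log2 fold change 0.14 ± 0.11, adjusted p 0.35), but it was called higher without siSTIM1 replicate 1 and siCont vehicle replicate 1 together (0.24, adjusted p 0.0008).

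Downstream of calcium entry, the NFAT factor genes NFATC2 and NFATC1 had lower transcript levels after STIM1 knockdown. NFATC2 had 549.5, 730.0 and 822 normalized counts in siSTIM1 cells and 2158, 2134 and 2337 in siCont cells. The groups did not overlap, and the log2 fold change was -1.67 ± 0.19 (adjusted p 1.1e-06). NFATC1 had 78.1, 81.4 and 70.1 in siSTIM1 cells and 181, 159 and 164 in siCont cells, again without overlap (-1.12 ± 0.17, adjusted p 3.5e-05). DYRK2, a kinase that phosphorylates NFAT, fell by 1.43 ± 0.17 on the log2 scale (adjusted p 1.9e-06), and PPP3CA, a catalytic subunit of calcineurin, rose by 0.56 ± 0.08 (adjusted p 1.1e-05). These 4 were the only called genes among the 14 tested of the calcineurin and NFAT list, whose median was -0.04. The lower ones made up 21.4% of the list, against 18.9% of all tested genes, and the higher one 7.14%, against 17.7%. RCAN1, a calcineurin regulator that is itself a known NFAT target, had 2396, 2135 and 2681 normalized counts in siSTIM1 cells and 2113, 1932 and 2099 in siCont cells and was not called (0.23 ± 0.12, adjusted p 0.16).

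**Figure D2:**
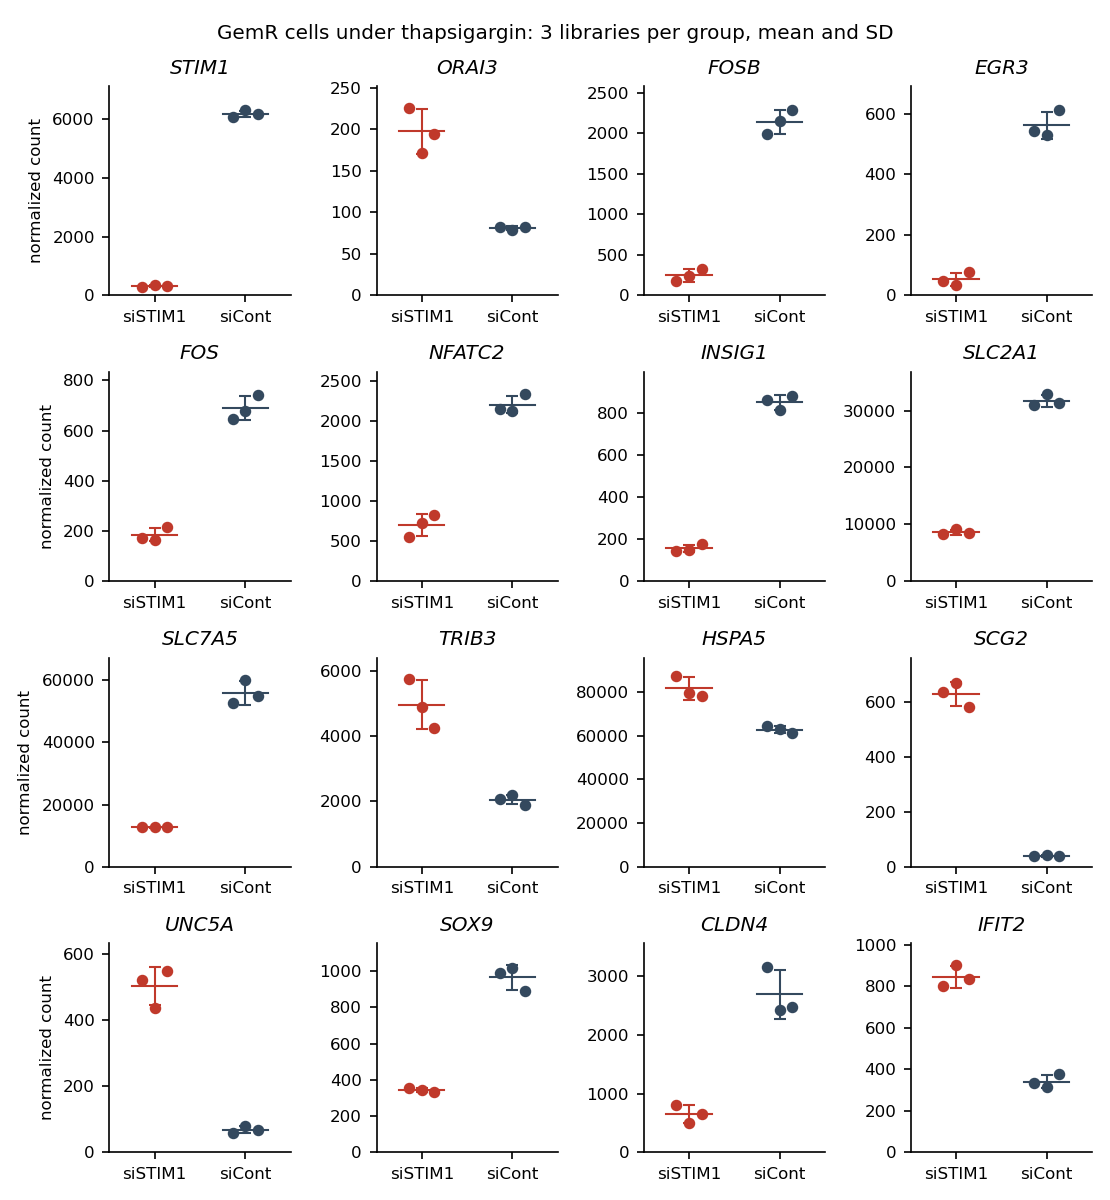
Normalized counts of 16 genes in GemR cells under thapsigargin, with siSTIM1 libraries in red on the left and siCont libraries in dark blue on the right, 1 point per library, horizontal lines at the mean and bars of 1 SD (n = 3). STIM1, FOSB, EGR3, FOS, NFATC2, INSIG1, SLC2A1, SLC7A5, SOX9 and CLDN4 are lower with siSTIM1 and ORAI3, TRIB3, HSPA5, SCG2, UNC5A and IFIT2 higher, with no overlap between the groups in any panel.

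The immediate early genes, transcription factors and other genes that calcium and growth factor signals switch on within the first hours, were the list with the lowest median (-0.86, against -0.01 for all tested genes). Of the 32 tested, 24 fell (75.0%, against 18.9% of all tested genes) and 3 rose. EGR3, a zinc finger factor, had 46.5, 33.6 and 76.6 normalized counts in siSTIM1 cells and 545, 529 and 613 in siCont cells. Each siCont library was thus several times above each siSTIM1 library, with a log2 fold change of -3.48 ± 0.29 (11.2-fold lower, adjusted p 2.4e-08). FOSB, a partner of JUN in the AP-1 factor, had 176, 231 and 325 in siSTIM1 cells and 1990.3, 2147 and 2283 in siCont cells. The groups were again far apart, with a log2 fold change of -3.17 ± 0.21 (9.01-fold lower, adjusted p 7.5e-10). FOS had 173, 164 and 214 in siSTIM1 cells and 648, 678 and 744 in siCont cells (-1.91 ± 0.14, adjusted p 3.3e-09).

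Orphan nuclear receptors of the NR4A family fell as well. NR4A1 had 2209, 1765 and 2547 normalized counts in siSTIM1 cells and 5816, 6219.8 and 6307 in siCont cells, without overlap (-1.51 ± 0.14, adjusted p 7.5e-08), and NR4A3 had a log2 fold change of -1.34 ± 0.22 (adjusted p 7.1e-05). RRAD, a small GTPase that binds calcium channel subunits, had 90.9, 79.0 and 78.2 in siSTIM1 cells and 323, 301 and 302 in siCont cells (-1.89 ± 0.30, adjusted p 6.4e-05). The Krüppel-like factors KLF2 (-1.43) and KLF4 (-1.37), the AP-1 members JUND (-1.25) and JUN (-1.03), the stress factor ATF3 (-1.17) and the GTPase GEM (-1.16) were called lower too, and MYC fell by 0.30 ± 0.07 (adjusted p 0.002). Not all members followed. KLF10 rose, with 737, 831 and 864 normalized counts in siSTIM1 cells and 443, 402 and 428 in siCont cells (0.93 ± 0.08, adjusted p 2.4e-08). CREM, which encodes cAMP-responsive regulators, rose by 0.75 ± 0.10 (adjusted p 5.3e-06) and EGR1 by 0.28 ± 0.09 (adjusted p 0.016), the EGR1 call being lost without siCont replicate 1 (0.1) or siSTIM1 replicate 3 (0.09). FOSL1, IER2, IER3, JUNB and SIK1 were not called.

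Promoter sequences of 3 of the lower immediate early genes and of the ER chaperone gene HSPA5, described further on, are shown because CREB and ATF family factors and the ER stress factors are known to bind short motifs near such start sites. The stretches run from 250 bases before to 50 bases after the annotated start (RefSeq, GRCh38.p14). They are FOSB at chr19:45467746-45468045 on the plus strand, FOS at chr14:75278578-75278877 on the plus strand, JUND at chr19:18281573-18281872 on the minus strand and HSPA5 at chr9:125241294-125241593 on the minus strand. Capitals mark TGACG, or its complement CGTCA, in the first 3 sequences, and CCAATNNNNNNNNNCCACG, the ER stress response element, in HSPA5. The HSPA5 stretch holds TGACG too, left there in small letters.
FOSB: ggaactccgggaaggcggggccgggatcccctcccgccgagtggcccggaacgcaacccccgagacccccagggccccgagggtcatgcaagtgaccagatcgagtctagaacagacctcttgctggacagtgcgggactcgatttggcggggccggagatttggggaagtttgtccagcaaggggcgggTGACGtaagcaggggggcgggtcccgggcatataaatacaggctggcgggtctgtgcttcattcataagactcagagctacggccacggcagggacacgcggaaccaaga
FOS: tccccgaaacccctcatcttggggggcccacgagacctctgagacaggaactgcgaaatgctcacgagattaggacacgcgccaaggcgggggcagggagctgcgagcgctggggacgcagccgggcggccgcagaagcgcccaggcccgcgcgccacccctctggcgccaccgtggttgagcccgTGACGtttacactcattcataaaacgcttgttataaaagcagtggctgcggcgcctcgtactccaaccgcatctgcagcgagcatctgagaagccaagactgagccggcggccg
JUND: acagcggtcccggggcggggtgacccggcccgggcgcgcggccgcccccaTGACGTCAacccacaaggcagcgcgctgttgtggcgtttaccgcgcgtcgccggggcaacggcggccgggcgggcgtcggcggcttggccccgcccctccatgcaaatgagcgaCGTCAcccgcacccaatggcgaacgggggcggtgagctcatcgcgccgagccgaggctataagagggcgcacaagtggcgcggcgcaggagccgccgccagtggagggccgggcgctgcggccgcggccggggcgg
HSPA5: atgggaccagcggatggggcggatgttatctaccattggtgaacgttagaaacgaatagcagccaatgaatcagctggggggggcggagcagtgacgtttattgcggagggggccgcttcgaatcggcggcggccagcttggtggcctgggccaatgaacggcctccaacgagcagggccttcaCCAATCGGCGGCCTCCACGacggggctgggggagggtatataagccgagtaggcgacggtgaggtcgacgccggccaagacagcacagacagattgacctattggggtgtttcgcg
TGACG, the core of the cAMP response element and part of the full palindrome TGACGTCA, starts at position -60 in FOSB and -64 in FOS. On either strand it was present in 14 of 22 immediate early promoters in the RefSeq table (63.6%) and in 10 of the 17 whose gene was called lower (58.8%), against 3368 of 9784 promoters of all tested genes (34.4%). In the chaperone and ERAD list, to which HSPA5 belongs, 12 of 30 promoters held it (40%). The palindrome TGACGTCA, which JUND carries and which contains TGACG on both strands, was in 331 of the 9784 (3.38%). The ER stress element, at position -66 in HSPA5, was in 6 of 30 promoters of the chaperone and ERAD list (20%) and in 14 of the 9784 (0.143%). These matches describe letters within this window and say nothing on which factors bound there.

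Genes that report on other signalling routes moved in both directions. In the ERK feedback list, 6 of 18 fell (33.3%, against 18.9% of all tested genes) and 3 rose (16.7%, against 17.7%), with a median of -0.03. The ERK phosphatase DUSP6 had 2717, 2996 and 3424 normalized counts in siSTIM1 cells and 5609.8, 5912 and 6098 in siCont cells, without overlap (-0.95 ± 0.08, adjusted p 1.2e-08), while the ERK-responsive factor ETV5 had a log2 fold change of 0.38 and was called higher. The phosphatases DUSP1 (-0.67), DUSP2 (-0.76) and DUSP8 (-0.64) were lower too, the DUSP8 call being lost without siCont replicate 1 (adjusted p 0.13), siCont replicate 2 (0.15) or siSTIM1 replicate 2 (0.17). Of 25 tested NF-kB and chemokine genes, 10 fell (40.0%, against 18.9%) and 6 rose (24.0%, against 17.7%), with a median of -0.23. Of the 10 lower genes, 5 encode secreted factors: the cytokine IL11 fell by 1.78 ± 0.25 on the log2 scale (adjusted p 1.4e-05) and the neutrophil chemokine CXCL1 by 1.37 ± 0.17 (adjusted p 3.1e-06), with CXCL1 at 397, 342 and 446 normalized counts in siSTIM1 cells and 1151, 929 and 991 in siCont cells. CXCL5, another neutrophil chemokine, was called lower (-1.36, adjusted p 0.025), but not without siCont replicate 2 (0.085) or siSTIM1 replicate 3 (0.13). Its call was also lost with a pseudocount of 5 (-0.54, adjusted p 0.074) and with only the libraries compared (0.094). On the recovered reads neither edgeR (adjusted p 0.085) nor DESeq2 (0.075) called it. The chemokine receptor CXCR4 had 73.1, 81.4 and 80.6 in siSTIM1 cells and 208, 174 and 225 in siCont cells (-1.35 ± 0.11, adjusted p 2.6e-08). On the higher side, the apoptosis inhibitor BIRC3 had 2033, 2069 and 2596 in siSTIM1 cells and 1005, 921 and 990.0 in siCont cells (1.19 ± 0.14, adjusted p 1.3e-06), and the subunit gene NFKB2 rose by 0.60 ± 0.08 (adjusted p 1.4e-05). The subunit genes RELB (0.55) and NFKB1 (0.34) rose too, whereas REL (-1.23) and RELA (-0.20) fell. The REL call was lost without siCont replicate 3 (adjusted p 0.055) or siSTIM1 replicate 1 (0.08), and the RELA call without siCont replicate 1 (0.053) or siSTIM1 replicate 2 (0.096).

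In the prostaglandin E2 pathway, 3 of 8 tested genes fell (37.5%, against 18.9% of all tested genes) and the other 5 were not called (median -0.20). They were the receptor PTGER4 (-1.13 ± 0.11, adjusted p 1.5e-07), the phospholipase PLA2G4A, which releases the precursor arachidonic acid (log2 fold change -0.60), and the inducible cyclooxygenase PTGS2. PTGS2 had 3499.8, 4386 and 5493 normalized counts in siSTIM1 cells and 6232, 5986 and 6901 in siCont cells, lower without overlap (-0.54 ± 0.13, adjusted p 0.0028). Among 13 ligands and receptors of the EGF receptor family, 4 rose, all of them ligands, and 2 fell. The ligand HBEGF had 9042, 8416 and 9044 in siSTIM1 cells and 5335, 4817 and 5126 in siCont cells (0.79 ± 0.11, adjusted p 1.5e-05), and the ligands EPGN (1.40) and BTC (1.15) rose too, whereas the neuregulin NRG1 fell by 0.59 ± 0.10 (adjusted p 0.00013).

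In both lists of unfolded protein response genes most members were not called, as over all tested genes, of which 36.6% were called. Among the called members rises outnumbered falls. The PERK-ATF4 arm adapts amino acid supply and can lead to cell death. Of its 39 tested genes, 15 rose (38.5%, against 17.7% of all tested genes), 4 fell (10.3%, against 18.9%) and 20 were not called (median 0.14). The summed level of this list was 198592 to 207895 normalized counts in siSTIM1 libraries and 230590 to 242507 in siCont libraries, the lower sum being with siSTIM1. TRIB3, a pseudokinase induced by this arm, had 5746, 4881 and 4263 normalized counts in siSTIM1 cells and 2066, 2208 and 1903 in siCont cells. Every siSTIM1 library was above every siCont library, with a log2 fold change of 1.26 ± 0.09 (adjusted p 1.5e-09). DDIT3, which encodes the pro-apoptotic factor CHOP, had 4225, 3436 and 3401 in siSTIM1 cells and 1839.8, 2014 and 1692 in siCont cells, also without overlap (0.99 ± 0.12, adjusted p 1.7e-06). The serine synthesis enzyme PSPH (0.79), the cystine transporter SLC7A11 (0.76), the secreted stress proteins STC2 (0.66) and GDF15 (0.66) and the factor CEBPB (0.64) were called higher as well. ATF4 itself averaged 8915 ± 788 in siSTIM1 cells and 8057 ± 238 in siCont cells and was not called (0.14 ± 0.07, adjusted p 0.14), though it was on quantile-normalized values (0.22, adjusted p 0.013) and with a slope on transcript length removed (0.15, adjusted p 0.016).

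Among the 4 that fell were both chains of the large neutral amino acid transporter. SLC7A5, its transport chain, had 12737, 12619 and 12636 normalized counts in siSTIM1 cells and 52549.9, 59958 and 54915 in siCont cells. The 3 siSTIM1 values were almost equal, and their mean lay 4.4-fold below the siCont mean (-2.14 ± 0.10, adjusted p 1.4e-11). SLC3A2, its heavy chain, had 11963, 10259.6 and 10250.2 in siSTIM1 cells and 22528, 24060.2 and 22170.3 in siCont cells, likewise without overlap (-1.09 ± 0.07, adjusted p 7.3e-10).

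The ATF6 and XBP1 arm has targets that fold proteins in the ER or send misfolded ones for degradation (ERAD). Of its 34 tested genes, 13 rose (38.2%, against 17.7% of all tested genes), 1 fell (2.94%, against 18.9%) and 20 were not called (median 0.11). HSPA5, which encodes the chaperone BiP, had 87374, 79392 and 78014 normalized counts in siSTIM1 cells and 64230.1, 63109.7 and 61009 in siCont cells. The groups did not overlap, and the change was modest (0.38 ± 0.06, adjusted p 5.9e-05). The ER chaperone CRELD2 rose by 0.57 ± 0.11 (adjusted p 0.00042), the ERAD mannosidase EDEM3 by 0.61 ± 0.14 (adjusted p 0.0022), the ERAD factor DERL2 by 0.39 ± 0.10 (adjusted p 0.0041), and the ER membrane protein gene WFS1 by 0.50. EIF2AK3, which encodes the sensor PERK, was the gene called lower (-0.22, adjusted p 0.021), a call lost without siCont replicate 2 (0.066) or siSTIM1 replicate 1 (0.12). The genes of the other sensors, ATF6 (-0.03 ± 0.06, adjusted p 0.7) and ERN1, which encodes IRE1 (0.24 ± 0.34, adjusted p 0.62), were not called. Nor was XBP1, the factor whose RNA IRE1 splices (0.01 ± 0.08, adjusted p 0.92). ERN1 was called higher without siSTIM1 replicate 1 and siCont vehicle replicate 1 together (0.52, adjusted p 0.0075).

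In the sterol and hypoxia lists every called member was lower. Of 24 tested genes of sterol synthesis and uptake, 20 fell (83.3%, against 18.9% of all tested genes), with a median log2 fold change of -0.76. INSIG1, which holds the sterol-sensing SREBP factors in the ER, had 144, 148 and 175 normalized counts in siSTIM1 cells and 862, 815 and 882 in siCont cells. Its siSTIM1 values all lay more than 4-fold below the siCont values (-2.45 ± 0.14, adjusted p 1.8e-10). SQLE, the squalene epoxidase, had 837, 868 and 863 in siSTIM1 cells and 2213, 2042 and 1977 in siCont cells (-1.28 ± 0.09, adjusted p 2e-09). The synthesis enzymes MSMO1, a sterol methyl oxidase, and HMGCS1, the HMG-CoA synthase, fell by 1.07 ± 0.09 (adjusted p 3.4e-08) and 0.97 ± 0.08 (adjusted p 3.4e-08). SREBF2, which encodes the factor that drives these genes, fell by 0.63 ± 0.09 (adjusted p 1e-05). EBP, NSDHL, PMVK and TM7SF2 were not called.

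Of 24 tested hypoxia and glycolysis genes, 19 fell (79.2%, against 18.9% of all tested genes) and the other 5 were not called (median -0.35). SLC2A1, the glucose transporter GLUT1, had 8208, 9089.9 and 8507 normalized counts in siSTIM1 cells and 30917, 32894 and 31393 in siCont cells. The siSTIM1 libraries were all more than 3-fold below the siCont libraries (-1.88 ± 0.08, adjusted p 1.7e-12). EGLN3, an oxygen-sensing prolyl hydroxylase, had 116, 125 and 166 in siSTIM1 cells and 536, 515 and 539 in siCont cells (-1.98 ± 0.14, adjusted p 1.4e-09). The glucose transporter SLC2A3 (-1.86) and the glycolytic regulator PFKFB4 (-1.73) fell by similar amounts. Lactate dehydrogenase LDHA fell by 0.77 ± 0.06 (adjusted p 9.3e-09), and the other glycolytic enzymes called lower included PFKP (-0.34), ENO1 (-0.36), PKM (-0.36) and PGK1 (-0.30). ENO1 lost its call on quantile-normalized values (-0.16, adjusted p 0.051). VEGFA, the vascular growth factor and a standard hypoxia target, averaged 4986 ± 172 in siSTIM1 cells and 4577 ± 170.1 in siCont cells and was not called (0.12 ± 0.06, adjusted p 0.13), though it was on quantile-normalized values (0.20, adjusted p 0.02). Not called either were PDK1, HK1, ALDOC and P4HA1.

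Genes of cell identity and adhesion split within their lists. Of 19 tested Wnt targets and SOX factors, 8 fell (42.1%, against 18.9% of all tested genes) and 3 rose (15.8%, against 17.7%), with a median of -0.42. SOX9, a ductal progenitor factor, had 357, 344 and 335 normalized counts in siSTIM1 cells and 993, 1016 and 888 in siCont cells, without overlap (-1.48 ± 0.13, adjusted p 3.2e-08). SOX2 fell by 1.70 ± 0.26 (adjusted p 4.8e-05) and SOX4 by 1.31 ± 0.13 (adjusted p 1.4e-07). The rising members included the Wnt inhibitor DKK4 (2.58), the stem cell receptor LGR5, at 27.7, 19.6 and 25.8 in siSTIM1 cells and 6.58, 4.4 and 4.29 in siCont cells (2.06 ± 0.35, adjusted p 0.00011), and CTNNB1, which encodes beta-catenin (0.29).

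Among 28 epithelial junction genes, 10 fell (35.7%, against 18.9% of all tested genes) and 9 rose (32.1%, against 17.7%), with a median of 0.00. The tight junction claudin CLDN4 had 815, 504 and 652 normalized counts in siSTIM1 cells and 3169, 2432 and 2480.4 in siCont cells, far apart despite the spread within each group (-2.05 ± 0.24, adjusted p 1.6e-06). ELF3, an epithelial ETS factor, had 265, 302 and 253 in siSTIM1 cells and 894, 993 and 1079 in siCont cells (-1.85 ± 0.13, adjusted p 1.3e-09). The claudin CLDN23 fell by 1.01. The tight junction scaffold TJP3 went the other way, with 242, 164 and 239 in siSTIM1 cells and 60.2, 52.0 and 67.5 in siCont cells (1.81 ± 0.21, adjusted p 1.2e-06). E-cadherin, CDH1, was not called (0.08 ± 0.14, adjusted p 0.71). Of 20 mesenchymal genes, 7 rose and 6 fell (median 0.01). The growth factor TGFB2 rose by 1.16. Fibronectin, FN1, averaged 336 ± 78.2 in siSTIM1 cells and 102 ± 12.2 in siCont cells (1.69 ± 0.18, adjusted p 6.2e-07), while the fibrillar collagen COL3A1 had 87.0, 84.5 and 91.9 in siSTIM1 cells and 238, 175 and 167 in siCont cells (-1.11 ± 0.12, adjusted p 8.1e-07).

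Targets of the YAP and TEAD factors were among the lists with more rises than falls, 11 against 4 of 22 tested (median 0.19). DLC1, a GTPase activating protein, had 1273, 1462 and 1457 normalized counts in siSTIM1 cells and 369, 386 and 432 in siCont cells, above them in every library (1.82 ± 0.10, adjusted p 6.4e-11). ANKRD1, a muscle-type ankyrin repeat protein much used as a YAP readout, rose by 1.57 ± 0.09 (adjusted p 6.2e-11) and the scaffold AMOTL2 by 1.03 ± 0.10 (adjusted p 2.8e-07). The matricellular gene CYR61 fell (-0.91) although its relative CTGF rose (0.51 ± 0.14, adjusted p 0.0079), a call lost without siSTIM1 replicate 3 (0.064). In the pancreatic lineage list 4 of 15 rose and 4 fell (26.7% each, against 17.7% and 18.9%), with a median of -0.27. The endoderm factor FOXA2 had 20.8, 43.0 and 23.4 in siSTIM1 cells and 95.0, 107 and 92.1 in siCont cells (-1.79 ± 0.20, adjusted p 1.2e-06), GATA6, a marker of the classical subtype, fell by 0.77 ± 0.12 (adjusted p 3.6e-05), and the trefoil peptide TFF2 rose by 1.59 ± 0.20 (adjusted p 3.2e-06). Its relative TFF1 rose by 0.85 (adjusted p 0.012), a call lost without siCont replicate 2 (0.059).

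Proliferation genes were split. In S phase genes 9 of 28 rose and 6 fell (median 0.07), and in G2/M genes 3 of 25 rose and 6 fell (median -0.05). The largest rise was that of FAM111B, a trypsin-like protease, with 272, 349.7 and 349.7 normalized counts in siSTIM1 cells and 73.3, 82.8 and 99.6 in siCont cells (1.91 ± 0.12, adjusted p 4.4e-10), and the largest fall that of the replication helicase subunit GINS1, with 181, 202 and 192 in siSTIM1 cells and 399.6, 436 and 481 in siCont cells (-1.19 ± 0.08, adjusted p 2.4e-09). Both stood clear of the other group in every library. The cell cycle factor E2F2 rose by 1.31, and GINS2, of the same helicase complex as GINS1, fell by 0.68. In the G2/M list the cyclin CCNA2 (-0.52), the kinesin KIF20A (-0.46) and the topoisomerase TOP2A (-0.36) fell, and the spindle factor TPX2 rose (0.46). Of 22 p53 targets, 11 fell (50%, against 18.9%) and 3 rose (13.6%, against 17.7%), with a median of -0.35. MDM2, the ligase that degrades p53, had 281, 380.2 and 338 in siSTIM1 cells and 768, 818 and 889 in siCont cells (-1.32 ± 0.10, adjusted p 6.5e-09), and the cell cycle inhibitor CDKN1A fell by 0.77 ± 0.14 (adjusted p 0.00019), as did the antiproliferative BTG2 (log2 fold change -1.10) and the damage-recognition gene DDB2 (-1.06). The repair gene XPC rose by 0.81 ± 0.08 (adjusted p 4.6e-07).

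Gemcitabine uptake and metabolism genes were split, 4 of 19 higher (21.1%, against 17.7% of all tested genes) and 7 lower (36.8%, against 18.9%), with a median of -0.03. The nucleoside transporter SLC29A2 had 167, 178 and 177 normalized counts in siSTIM1 cells and 394, 388 and 377 in siCont cells (-1.15 ± 0.08, adjusted p 3.2e-09), and its relative SLC29A1, the main route of gemcitabine entry, fell by 0.60 ± 0.08 (adjusted p 1.2e-05). The drug efflux pump ABCG2 rose by 0.70. The ribonucleotide reductase subunits differed in direction. RRM2B, which p53 induces, fell by 1.13 ± 0.12 (adjusted p 7e-07). RRM1, the large subunit, lies beside STIM1 at chr11:4094707-4138876 on the plus strand and had 46925, 53065 and 50074 in siSTIM1 cells and 42691, 44102 and 44579.5 in siCont cells. The groups did not overlap, but the change was small (0.19 ± 0.06, adjusted p 0.015), lost its call without siCont replicate 1 (0.063) or siSTIM1 replicate 2 (0.088), and was 0.47 on quantile-normalized values. DCK, the kinase that activates gemcitabine, was not called (log2 fold change 0.01). Of 22 tested genes around STIM1 on 11p15.4, 6 fell (27.3%, against 18.9%) and 3 rose (13.6%, against 17.7%), with a median of -0.08. The largest change after STIM1 was that of CDKN1C, an imprinted cell cycle inhibitor, at 17.8, 8.61 and 14.5 in siSTIM1 cells and 116, 90.7 and 77.1 in siCont cells (-2.74 ± 0.30, adjusted p 8e-07), and the others that fell included PHLDA2, imprinted too (-0.58), and FAM160A2 (-0.55).

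Of 51 chromatin regulators, 8 were higher and 8 lower (15.7% each, against 17.7% and 18.9% of all tested genes), with a median of 0.04. SUZ12, a core subunit of Polycomb repressive complex PRC2, had 605, 811 and 771 normalized counts in siSTIM1 cells and 1520.2, 1496 and 1649 in siCont cells (-1.10 ± 0.09, adjusted p 2.1e-08). Its catalytic partners moved the opposite way, EZH1 by 0.71 ± 0.10 (adjusted p 1.3e-05) and EZH2 by 0.61 ± 0.07 (adjusted p 1.7e-06). The histone demethylase KDM6B fell by 0.71. TET1, which oxidizes methylated cytosine, was called lower (-0.97, adjusted p 0.035), but not without siCont replicate 1 (0.053), siCont replicate 3 (0.15) or siSTIM1 replicate 1 (0.15). Interferon-stimulated genes had the highest list median, 0.37, with 10 of 20 higher and 3 lower. IFIT2, an antiviral RNA-binding protein, had 799, 902 and 834 in siSTIM1 cells and 333, 313 and 375 in siCont cells, without overlap (1.31 ± 0.10, adjusted p 8.6e-09), OASL rose by 1.41 ± 0.18 (adjusted p 4.2e-06), and IFIT3, a relative of IFIT2, rose by 1.39. IRF1, which encodes an interferon response factor, fell by 1.44 ± 0.13 (adjusted p 4.6e-08). The plot of the gene lists places these groups side by side.

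**Figure D3:**
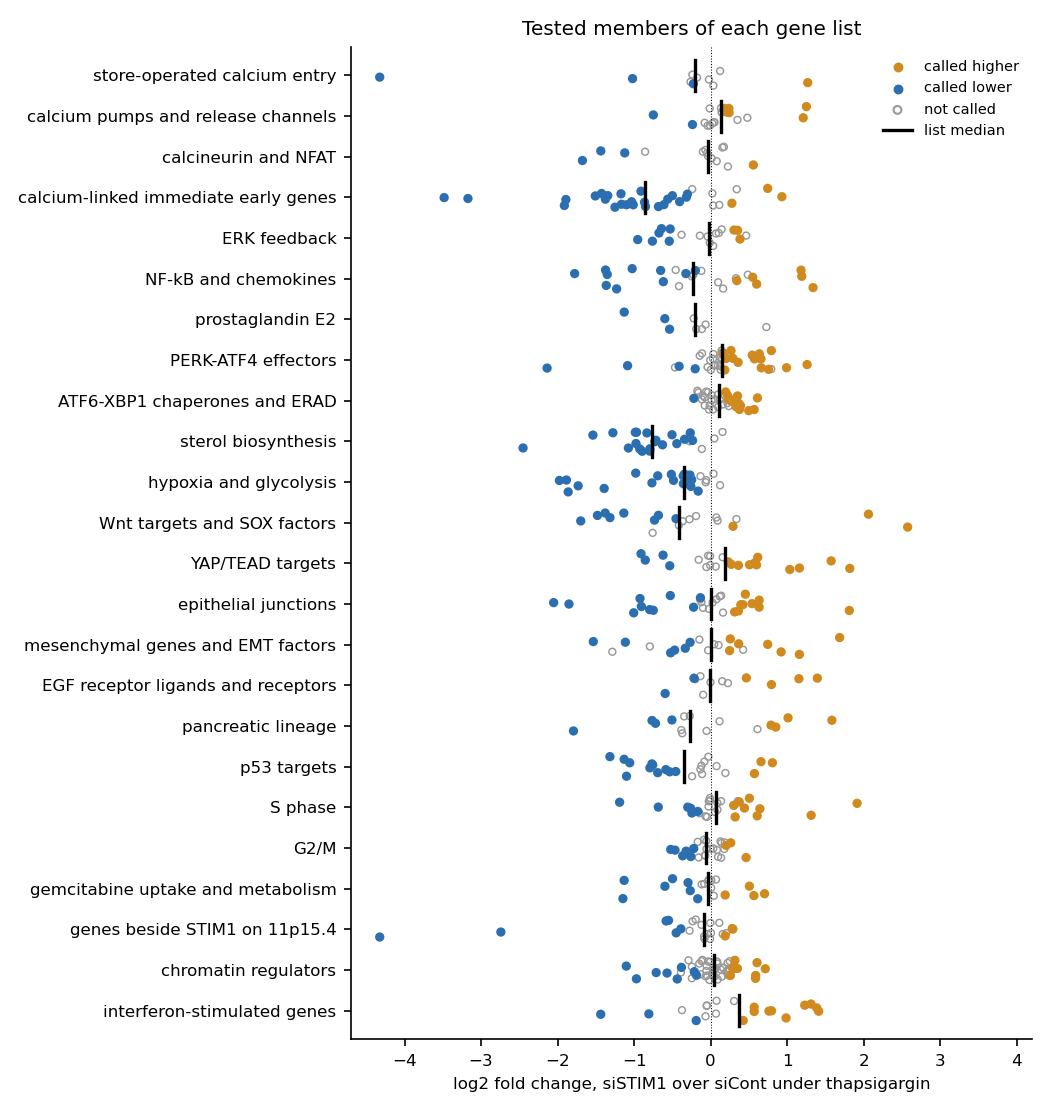
Log2 fold change of siSTIM1 over siCont under thapsigargin (horizontal axis) for each tested member of the gene lists (rows), in orange where called higher, in blue where called lower and open where not called, with a black bar at each list's median. The immediate early, sterol and hypoxia lists lie mostly left of 0, with medians of -0.86, -0.76 and -0.35, and the interferon list has the highest median at 0.37.

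Without siSTIM1 replicate 1, 2175 of all 13096 tested genes were called higher and 2386 lower, and the lists were split as follows. The counts of higher and lower genes were 3 and 22 for the immediate early genes, 13 and 5 for the PERK-ATF4 arm, 7 and 8 for the NF-kB list and 3 and 11 for the p53 targets. The called genes were 21 sterol, 19 hypoxia and 4 prostaglandin genes, all lower, and 10 genes of the ATF6 and XBP1 arm and 6 calcium pumps and channels, all higher. The store-operated entry list had 1 and 2, the calcineurin and NFAT list 1 and 3, the EGF receptor list 3 and 1 and the ERK feedback list 2 and 6. The Wnt and SOX list had 3 and 8, YAP targets 10 and 4, epithelial genes 7 and 9, mesenchymal genes 5 and 4, and the pancreatic lineage list 4 and 5. S phase genes had 11 and 6, G2/M genes 5 and 5, gemcitabine genes 4 and 5, chromatin regulators 10 and 6 and interferon-stimulated genes 7 and 2. The list around STIM1 on 11p15.4 had 3 and 6, fibroblast markers 0 and 1, immune and endothelial markers 0 and 2 and ductal markers 1 and 2. The medians of the immediate early, sterol and hypoxia lists were then -0.78, -0.76 and -0.38.

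The 12 largest rises and 12 largest falls among non-overlapping genes included many outside these lists. SCG2, which encodes the secretory granule protein secretogranin II, had 637, 668 and 581 normalized counts in siSTIM1 cells and 37.6, 44.0 and 38.6 in siCont cells. It had the largest rise among these (3.94 ± 0.11, 15.3-fold, adjusted p 8.7e-15). AP3B2, a neuronal subunit of the AP-3 vesicle coat, had 285, 168 and 208 in siSTIM1 cells and 19.7, 15.9 and 21.4 in siCont cells (3.44 ± 0.20, adjusted p 1.3e-10), and the netrin receptor UNC5A had 524, 438 and 549 in siSTIM1 cells and 58.3, 79.3 and 66.4 in siCont cells (2.88 ± 0.19, adjusted p 8.5e-10). The vitamin D-degrading enzyme CYP24A1 had 330.1, 347 and 349.7 in siSTIM1 cells and 50.8, 38.8 and 43.9 in siCont cells (2.92 ± 0.16, adjusted p 5.4e-11). These 4 genes had no overlap between groups, with every siSTIM1 library at least several-fold above every siCont library.

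The other rises in this set were SPOCD1 (3.35), the actin-associated SYNPO (2.94), PCDHA11 (2.53), the fatty acid carrier FABP4 (2.52), ELFN2 (2.51), KRCC1 (2.44), the Dispatched family gene DISP2 (6.05-fold on the linear scale) and PAQR8, of the progestin and adipoQ receptor family (2.39). PCDHA11 shares exons with its neighbours in the protocadherin cluster, so its reads could be split among them. STIM1, EGR3, FOSB and CDKN1C, given above, were among the falls. TPRG1 (-3.24) lay between EGR3 and FOSB, and the Wnt ligand WNT9A came next after FOSB. WNT9A had 24.7, 27.4 and 40.3 normalized counts in siSTIM1 cells and 269, 247 and 279 in siCont cells (-3.09 ± 0.23, adjusted p 5.1e-09). The keratin KRT6A (-3.08) has near-identical paralogs, which makes its value uncertain. The TEAD cofactor VGLL3 (-3.04), PAQR9 (-3.04), the orphan receptor GPR141 (-2.94) and the matrix metalloproteinase MMP10 (-2.88) followed. PTHLH, the parathyroid hormone-related peptide, had 72.2, 61.8 and 88.6 in siSTIM1 cells and 463, 445 and 473 in siCont cells (-2.63 ± 0.14, adjusted p 4.8e-11).

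The same knockdown in vehicle, which shares no library with the thapsigargin comparison, called 5496 genes (42.0%), 2733 higher (20.9%) and 2763 lower (21.1%). Both comparisons called 3047 genes, and 2974 of these (97.6%) moved in the same direction. These 2974 made up 62.0% of the genes called under thapsigargin and 54.1% of those called in vehicle. Across all 13096 genes the 2 sets of log2 fold changes had a Pearson correlation of 0.71 and a Spearman correlation of 0.64, given as a description since genes are not independent replicates. STIM1 averaged 309.8 ± 40.8 normalized counts with siSTIM1 and 6187 ± 115 with siCont under thapsigargin, and 382 ± 23.7 with siSTIM1 and 5890.4 ± 793 with siCont in vehicle. Its log2 fold changes of -4.32 and -3.93 did not differ at the threshold (difference -0.39 ± 0.14, adjusted p 0.11). Replicate 1 of siCont in vehicle stood apart, with deviations from its group mean that fell with transcript length more than those of any other library (Spearman correlation -0.585, against 0.399 and 0.534 in replicates 2 and 3). Without it, 4567 genes were called in vehicle.

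Most sterol and hypoxia genes were called lower in both conditions. Of 24 sterol genes, 20 fell under thapsigargin (median -0.76) and 21 in vehicle (median -0.66), and of 24 hypoxia genes, 19 fell under thapsigargin (median -0.35) and 16 in vehicle (median -0.31). The hypoxia gene NDRG1 was called higher in vehicle (0.25) and 7 hypoxia genes were not called there. Without siCont vehicle replicate 1, 20 sterol and 17 hypoxia genes fell in vehicle and 1 hypoxia gene rose. INSIG1, the sterol gene with the largest fall, had effects of -2.45 under thapsigargin and -1.83 in vehicle (difference -0.62 ± 0.20, adjusted p 0.094). SLC2A1 had effects of -1.88 under thapsigargin and -1.05 in vehicle (difference -0.84 ± 0.11, adjusted p 9.4e-05). It was 1 of 4 hypoxia genes with a called difference, all lower under thapsigargin (16.7%, against 2.90% of all tested genes). SCG2 averaged 629 ± 44.2 with siSTIM1 and 40.1 ± 3.47 with siCont under thapsigargin, against 599.6 ± 40.9 and 48.2 ± 5.27 in vehicle. Its rise was 3.94 under thapsigargin and 3.61 in vehicle (difference 0.33 ± 0.16, adjusted p 0.26). ORAI3 rose by 1.27 under thapsigargin and by 1.61 in vehicle (difference -0.34 ± 0.22, adjusted p 0.39).

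**Figure D4:**
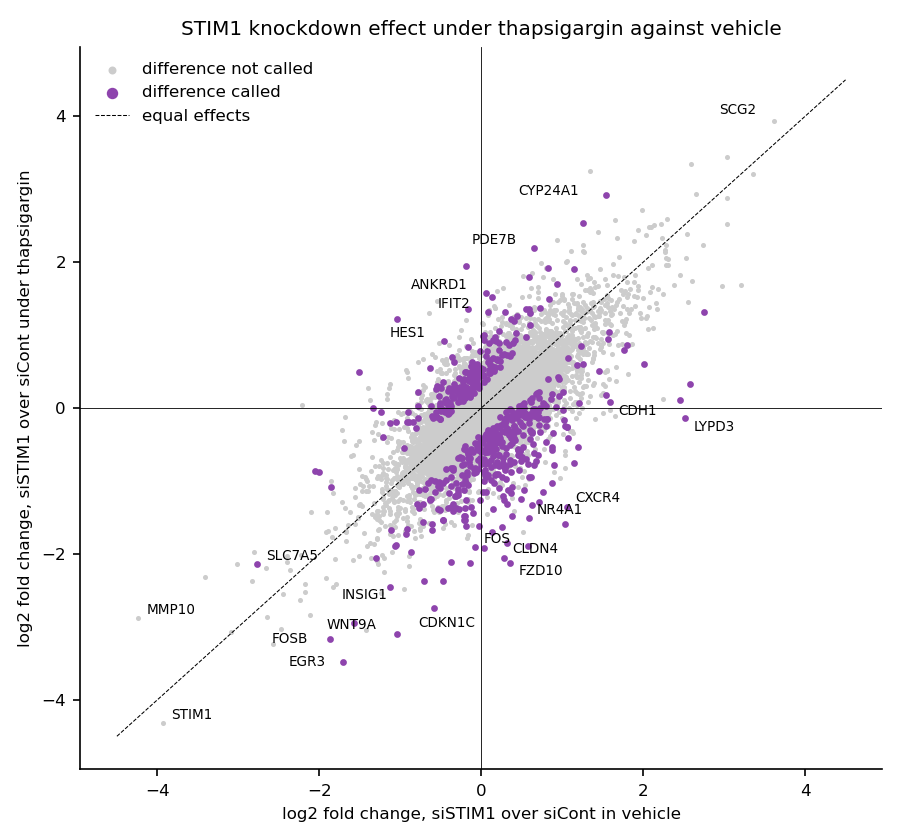
Log2 fold change of siSTIM1 over siCont under thapsigargin (vertical axis) against the same in vehicle (horizontal axis), 1 point per tested gene, in purple where the difference between the 2 effects was called, with a dashed line of equal effects. Most genes lie along the line (Pearson correlation 0.71), and purple points are more numerous below it (380) than above it (197).

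The knockdown effect differed between thapsigargin and vehicle for 577 genes, with a higher log2 fold change under thapsigargin for 197 (1.50% of tested genes) and a lower one for 380 (2.90%). On quantile-normalized values the split was 264 and 316. This count moved with single libraries. It was 1216 when siCont vehicle replicate 3 was left out. Leaving out siCont replicate 1 or 3 under thapsigargin gave 334 or 338, leaving out siSTIM1 replicate 1 or 3 in vehicle gave 323 or 341, and leaving out siSTIM1 replicate 1 under thapsigargin gave 372. Of the 577, 432 were also called under thapsigargin, 245 of them without being called in vehicle. All 73 genes called in opposite directions in the 2 conditions were among the 577, and 55 of the 73 were lower under thapsigargin and higher in vehicle.

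Of the 32 immediate early genes, 10 had a lower effect under thapsigargin (31.2%, against 2.90% of all tested genes) and 5 a higher one (15.6%, against 1.50%). FOS averaged 184 ± 26.3 with siSTIM1 and 689.8 ± 49.0 with siCont under thapsigargin, and 108 ± 21.7 with siSTIM1 and 113 ± 17.5 with siCont in vehicle. The siCont libraries under thapsigargin thus stood alone above the other 3 groups, and the difference between effects was -1.84 ± 0.20 (adjusted p 1.2e-05). KLF4 had effects of -1.37 under thapsigargin and -0.31 in vehicle (difference -1.06 ± 0.16, adjusted p 0.00046). NFATC1 averaged 76.5 ± 5.79 with siSTIM1 and 168 ± 11.5 with siCont under thapsigargin, and 46.4 ± 4.11 with siSTIM1 and 37.0 ± 5.48 with siCont in vehicle (difference -1.45 ± 0.24, adjusted p 0.0011). NFATC2, with effects of -1.67 under thapsigargin and -0.76 in vehicle, missed the threshold (difference -0.92 ± 0.27, adjusted p 0.059). EGR3 had effects of -3.48 under thapsigargin and -1.71 in vehicle (difference -1.77 ± 0.41, adjusted p 0.018), a call lost without siCont thapsigargin replicate 3 (0.053), siSTIM1 vehicle replicate 1 (0.061) or siSTIM1 thapsigargin replicate 2 (0.05), and with edgeR on the recovered reads (-1.78, adjusted p 0.12).

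In the PERK-ATF4 list 15 of 39 differences were called higher under thapsigargin (38.5%, against 1.50% of all tested genes) and 0 were called lower, while 24 were not called, some of them negative (lowest -0.41). The list's median was 0.14 under thapsigargin and -0.14 in vehicle, where 10 genes rose and 16 fell. TRIB3 averaged 4964 ± 745 with siSTIM1 and 2059 ± 153 with siCont under thapsigargin, and 1041 ± 20.8 with siSTIM1 and 767 ± 33.0 with siCont in vehicle (difference 0.82 ± 0.12, adjusted p 0.00046). STC2 averaged 11168 ± 104 with siSTIM1 and 7057 ± 152 with siCont under thapsigargin and 1685 ± 50.7 with siSTIM1 and 1566 ± 31.2 with siCont in vehicle (difference 0.56 ± 0.07, adjusted p 0.00014). For SLC3A2 the positive difference meant a smaller fall, -1.09 under thapsigargin against -1.85 in vehicle (difference 0.77 ± 0.10, adjusted p 0.0001).

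In vehicle, chromatin and epithelial genes had more rises than falls. Of 51 chromatin regulators, 27 rose (52.9%, against 20.9% of all tested genes) and 5 fell in vehicle (median 0.33). Without siCont vehicle replicate 1, 18 rose and 4 fell there (median 0.16). The counts under thapsigargin were 8 and 8 (median 0.04). The difference was called for 4, all lower under thapsigargin (7.84%, against 2.90% of all tested genes). Of 28 epithelial junction genes, 12 rose (42.9%, against 20.9% of all tested genes) and 4 fell (14.3%, against 21.1%) in vehicle. Under thapsigargin 9 rose (32.1%, against 17.7%) and 10 fell (35.7%, against 18.9%). Of the 28 differences, 7 were called lower under thapsigargin (against 2.90% of all tested genes) and 1 higher (against 1.50%). In vehicle without siCont vehicle replicate 1, 12 rose and 3 fell. CDH1 averaged 454 ± 40.3 with siSTIM1 and 431 ± 40.0 with siCont under thapsigargin and 254 ± 4.07 with siSTIM1 and 83.9 ± 4.42 with siCont in vehicle (difference -1.51 ± 0.20, adjusted p 0.00011). Its level was thus lowest in siCont vehicle cells, and that of siSTIM1 vehicle cells also lay below both thapsigargin groups. SOX4 averaged 90.1 ± 13.0 with siSTIM1 and 224 ± 4.02 with siCont under thapsigargin, and 336 ± 27.8 with siSTIM1 and 270.3 ± 30.6 with siCont in vehicle (difference -1.63 ± 0.18, adjusted p 1.5e-05). PTGER4 was called lower under thapsigargin (-1.13) and higher in vehicle (0.53), a difference of -1.66 ± 0.15 (adjusted p 2.5e-06). The plot of 8 genes in the 4 GemR groups shows these layouts by library.

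**Figure D5:**
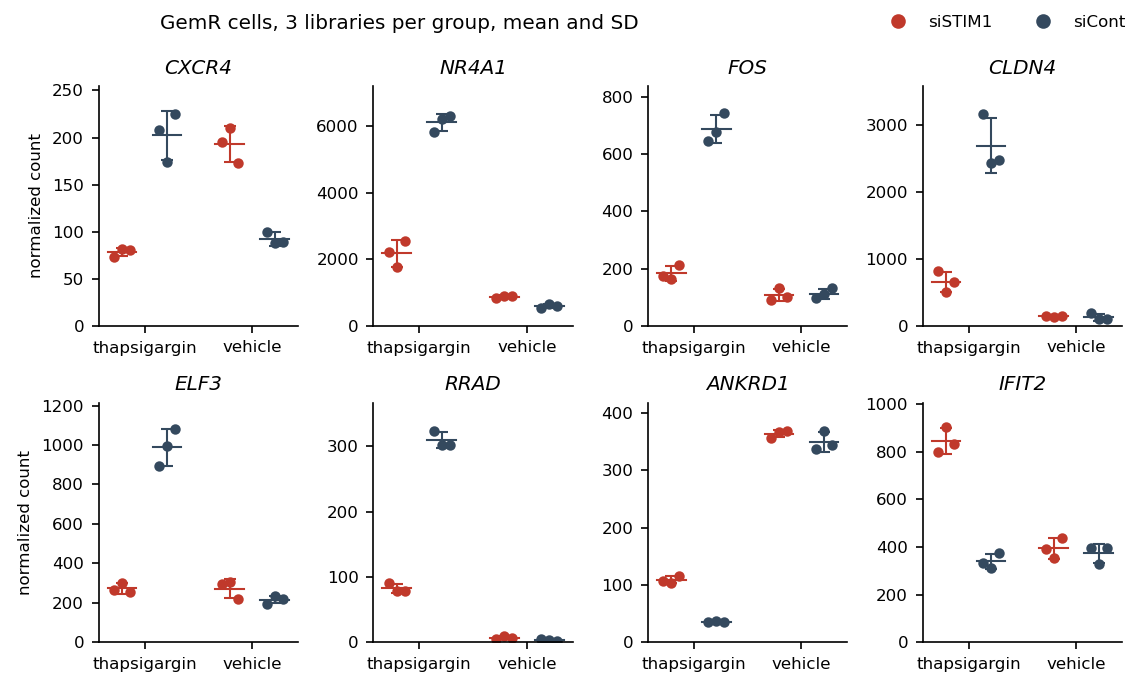
Normalized counts of 8 genes in the 4 GemR groups, siSTIM1 in red and siCont in dark blue, with thapsigargin on the left and vehicle on the right of each panel, 1 point per library, lines at the mean and bars of 1 SD (n = 3). For FOS, NR4A1, CLDN4, ELF3 and RRAD the siCont libraries under thapsigargin stand above all others, CXCR4 is lower with siSTIM1 under thapsigargin (78.4 against 202) and higher with siSTIM1 in vehicle (193 against 92.3), and for IFIT2 the siSTIM1 libraries under thapsigargin are the highest.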

How the data were processed

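The series holds 18 libraries of polyadenylated RNA in 6 groups of 3, of which the 6 from GemR cells under thapsigargin are described here. The kit, per the labels' protocols TruSeq RNA Library Prep v2, does not mark strand, so that reads of a gene and of an overlapping antisense gene cannot be told apart. STAR 2.6.0c, DESeq2, HTSeq 0.11.1 and the hg38 build are named in the submitters' processing notes, without the gene annotation. Normalized counts, a signal, were deposited by the authors: in every library 100% of positive values were whole multiples (within 0.01) of 1 step, which gave back the reads. The authors' tables of their own comparisons hold none between the siRNAs under thapsigargin and were not used. Of 26485 genes, 5873 were at 0 throughout and 28 had names turned into dates, of which 20 were tested by those names.

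For 13096 genes whose mean reached 10, log2(normalized count + 1) was fitted with limma 3.58.1 (trend, 1 mean per group, 18 libraries, 12 residual degrees of freedom) in R 4.3.3. Two-sided tests were made for 3 comparisons, siSTIM1 against siCont under thapsigargin, the same in vehicle, and the difference between both effects, each adjusted over all 13096 genes. By rule, the genes named were RRM1 and STIM1, the 12 lowest and 12 highest non-overlapping calls (mean of 50 or more in either group), the 4 called genes of each list that changed most, and the 6 highest and 6 lowest differences between knockdown effects among genes also called under thapsigargin (mean of 50 or more in a GemR group). Some genes this rule takes are not reported here, and the other genes named, list members among them, were chosen after their values were seen. The members and the 27 gene lists were chosen with earlier results of these data known. Gene lengths came from GENCODE 29 and promoters from RefSeq GRCh38.p14. Alternatives were other pseudocounts, filters, scalings and limma settings, a replicate block, each library left out, a slope on transcript length, and DESeq2 1.42.0 and the quasi-likelihood test of edgeR 4.0.16 on the recovered reads of 17 libraries, siSTIM1 vehicle replicate 3 being left out because its step lay too near 1 to check. The limma fit was tested on simulated data. Tables and figures were made with matplotlib 3.10.9, pandas 2.3.3 and numpy 2.4.6 in Python 3.11.15.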

Additional observations from a re-analysis of the deposited data

Results flagged for a closer look

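The effect of STIM1 knockdown differed between thapsigargin and vehicle for 577 genes (difference of the log2 fold changes, limma, adjusted p under 0.05), and the 6 lowest and 6 highest such differences among genes also called under thapsigargin follow with their effect under thapsigargin before that in vehicle. On the lower side, the Wnt receptor FZD10 had effects of -2.12 and 0.36 (difference -2.48). RRAD had effects of -1.89 and 0.57 (difference -2.47). For CXCR4 the effects were -1.35 and 1.05 (difference -2.41), called in opposite directions. CLDN4 had effects of -2.05 and 0.28 (difference -2.33), and ELF3 of -1.85 and 0.31 (difference -2.16). For CDKN1C they were -2.74 and -0.58 (difference -2.16).

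On the higher side, the phosphodiesterase PDE7B had effects of 2.19 and 0.65 (difference 1.54). ANKRD1 had effects of 1.57 and 0.06 (difference 1.52). LETM2 had effects of 1.52 and 0.14 (difference 1.38), a call with an adjusted p of 0.026 that was lost under 8 alternatives. The Notch target HES1 rose by 0.92 under thapsigargin and fell by 0.46 in vehicle (difference 1.38), so its calls were opposite. CYP24A1 had effects of 2.92 and 1.54 (difference 1.38), and IFIT2 of 1.31 and 0.08 (difference 1.23). With 3 libraries per group, single libraries were not screened for outlying values.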

How the results depend on the processing

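Counts of called genes under thapsigargin held within 1.5 times of 4796 under all settings tried except a 2-fold minimum (728); leaving out 1 library gave 3908 to 4561. The vehicle count of 5496 became 3294 with only the libraries compared and 662 at 2-fold, and 4264 to 6081 with 1 library left out. The 577 differences between effects became 317 with only the libraries compared, 140 at 2-fold and 323 to 1216 with 1 library left out. They became 346 with edgeR and 554 with DESeq2, which both also lacked siSTIM1 vehicle replicate 3 (341 in limma without that library alone). The cause of these shifts was not tested. Tests on the recovered reads called 4901 (edgeR) and 4887 (DESeq2) genes under thapsigargin. A slope on transcript length gave 5535 and 836 differences. With both libraries that fell most with length left out, chosen after seeing the data, the counts were 6046, 5272 in vehicle and 626 differences. With the replicate block they were 4931, 5753 and 679. Same-numbered siSTIM1 and siCont libraries under thapsigargin correlated at 0.129, -0.030 and 0.129 in their deviations from the group means. There siSTIM1 replicate 2 correlated best with siCont replicate 3 (0.141). Same-numbered siSTIM1 thapsigargin and siCont vehicle libraries correlated at 0.491, 0.140 and 0.288. The labels do not say what equal numbers share, and these values cannot settle it.

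Of 165 genes called under thapsigargin and given with a log2 fold change in the text, 148 kept call and direction under all settings run for them, and of 23 called differences given there, 21 did. Among the genes given with a value, signs changed for the uncalled ATF6, at 0.0016 quantile-normalized, 0.017 without both length-trend libraries and -0.061 to 0.017 with 1 library left out, for XBP1, at -0.020 without both and -0.020 to 0.034 with 1 left out, for CDH1 (-2.12e-05 to 0.13 with 1 left out) and DCK (-0.058 to 0.13), and for ORAI1, at -0.066 without both length-trend libraries and -0.066 to 0.12 with 1 library left out, and ORAI2, at 0.0033 median-centred, 0.0055 quantile-normalized and -0.092 to 0.020 with 1 library left out. The largest shift of a list median was 0.23.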

Other observations

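The following 5 genes lie outside the gene lists and were chosen after their values were seen. The synaptic vesicle fusion gene SNAP25 had 151, 168 and 194 normalized counts in siSTIM1 cells and 72.4, 66.1 and 56.8 in siCont cells under thapsigargin (log2 fold change 1.38 ± 0.17, limma adjusted p 2.9e-06). The complexin CPLX1 had 114, 102 and 121 in siSTIM1 cells and 32.9, 36.1 and 38.6 in siCont cells (1.62 ± 0.19, adjusted p 1.3e-06). The stathmin STMN3 rose by 1.26 ± 0.08 (adjusted p 5.7e-10) and GDAP1, a mitochondrial protein of peripheral nerve, by 1.32 ± 0.08 (adjusted p 1.7e-10). REST, which encodes a repressor of neuronal genes, had 356, 439.7 and 458 in siSTIM1 cells and 707, 655 and 747 in siCont cells (-0.76 ± 0.12, adjusted p 8.8e-05). In none of these 5 genes did the groups overlap, as in 4637 of all 4796 called genes. Neuronal genes as a set, and any link to REST, were not tested. All 5 were called in the same direction in vehicle, with log2 fold changes of 2.08 for SNAP25, 1.28 for CPLX1, 1.39 for STMN3, 1.29 for GDAP1 and -0.41 for REST.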
